A study of Mus musculus with 18 samples.

Results

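Hopx, Serpinf1, Diras2 and Kif26b were examined as a set of 4 genes chosen on their strong rise with BMP2 in these same arrays, and all probe sets that the platform annotation pairs with 1 of these 4 symbols alone were taken. This gave 7 of the 45101 probe sets, 2 each for Hopx, Serpinf1 and Diras2 and 1 for Kif26b. The rule set no numeric limit for the rise. The cells were neurosphere cultures from the lateral and medial ganglionic eminences of C57BL/6 mouse embryos at E15.5, dissociated after 7 days as spheres and plated in medium with 1% fetal calf serum. They received 10 ng/ml BMP2, or 50 nM trichostatin A (TSA), an inhibitor of histone deacetylases, for 6 or 24 h, or neither agent. Of the 18 arrays, 6 were of 6 h, a pair for each treatment and for the controls, and 12 were of 24 h, with 6 controls, 4 of TSA and 2 of BMP2. All groups were plated in serum without EGF. The labels and the methods of the study differ on whether the agents were added with the withdrawal of bFGF or before it, so how the 6 and 24 h arrays stand to that withdrawal is not settled here. A culture of this kind mixes radial glia, neurons and cells of the astrocyte and oligodendrocyte lineages. The labels do not say whether arrays of a group came from separate cultures, so each p-value rests on a spread between arrays that may be technical.

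BMP2 binds type I and type II serine/threonine kinase receptors, which phosphorylate receptor-regulated Smads that enter the nucleus with Smad4 and activate genes such as the Id family and the inhibitory Smads. In cultures of neural progenitors, BMPs are known to favour astrocytes over oligodendrocytes. The 4 genes have unlike roles. Hopx encodes a small homeodomain protein that does not bind DNA itself but binds serum response factor and recruits histone deacetylases, and it marks radial glia and stem cells of several tissues. Serpinf1 encodes pigment epithelium-derived factor (PEDF), a secreted serpin without protease-inhibiting activity that acts on blood vessels and neural stem cells. Diras2 encodes a small GTPase of the Ras superfamily, and Kif26b an atypical kinesin that acts downstream of Wnt5a and Ror receptors.

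Hopx lies on chromosome 5 at 77086986-77115123, Serpinf1 on chromosome 11 at 75410029-75422623, Diras2 on chromosome 13 at 52504375-52531354, all on the minus strand, and Kif26b on chromosome 1 at 178529125-178932857 on the plus strand in the RefSeq annotation of GRCm38.p6. The 250 bases before a RefSeq start site of each gene are shown because the 4 genes rose together. Each is given 5′ to 3′ on the strand of its gene. The start site used for Diras2, 52530836, lies within the gene span given above, and so does its window. Capitals mark matches on either strand to GGAGCC, letters found in BMP-responsive elements bound by Smads, and to CAGAC, the short Smad-binding letters. The related GGCGCC was searched as well, and a base could count in more than 1 match.
Hopx, chr5:77115124-77115373, minus strand: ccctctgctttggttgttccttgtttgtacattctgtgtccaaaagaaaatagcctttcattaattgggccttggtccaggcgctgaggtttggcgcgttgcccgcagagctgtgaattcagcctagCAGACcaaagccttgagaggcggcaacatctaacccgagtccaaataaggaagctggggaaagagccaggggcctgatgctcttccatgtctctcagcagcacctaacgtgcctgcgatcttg
Serpinf1, chr11:75422624-75422873, minus strand: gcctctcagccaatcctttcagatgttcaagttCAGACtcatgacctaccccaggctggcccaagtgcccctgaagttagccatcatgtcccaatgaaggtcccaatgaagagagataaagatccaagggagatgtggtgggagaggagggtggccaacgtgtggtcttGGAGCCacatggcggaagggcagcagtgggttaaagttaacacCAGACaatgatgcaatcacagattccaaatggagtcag
Diras2, chr13:52530837-52531086, minus strand: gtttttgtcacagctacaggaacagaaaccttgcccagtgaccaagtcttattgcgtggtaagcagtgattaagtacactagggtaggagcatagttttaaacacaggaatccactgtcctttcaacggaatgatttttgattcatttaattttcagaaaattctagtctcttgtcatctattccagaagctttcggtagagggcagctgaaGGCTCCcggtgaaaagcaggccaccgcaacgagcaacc
Kif26b, chr1:178528875-178529124, plus strand: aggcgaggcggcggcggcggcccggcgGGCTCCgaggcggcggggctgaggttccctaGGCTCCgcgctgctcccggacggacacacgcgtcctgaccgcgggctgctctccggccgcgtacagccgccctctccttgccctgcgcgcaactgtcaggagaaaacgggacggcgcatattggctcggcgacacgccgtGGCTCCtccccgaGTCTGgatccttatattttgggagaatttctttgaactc

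GGAGCC stood 3 times in the Kif26b window, 1 time in the Serpinf1 and the Diras2 windows and 0 times in the Hopx window, and 26% of the 32851 RefSeq promoters hold it within the same 250 bases. CAGAC stood 2 times in the Serpinf1 window and 1 time in the Hopx and Kif26b windows, against 42.2% of all promoters with at least 1 match. GGCGCC stood in none of the 4 windows and in 9.59% of all promoters. A second RefSeq start of Hopx, at position 77095267, had 1 GGAGCC and 0 CAGAC in its 250 bases. The window of Kif26b was 68.4% G and C, against 52.4% for Hopx, 51.6% for Serpinf1 and 44% for Diras2. These matches describe letters and not binding sites.

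Signals are linear probe set values after quantile normalization over the 18 arrays. In the controls of both times 3 of the 4 genes were dim. A signal of 100 was the lowest group mean at which a probe set entered the model, and 6 of the 7 probe sets entered it. Of these 6, only Hopx 1428662_a_at had group means over 100 outside the BMP2 arrays. The other 5 were tested because their BMP2 arrays were bright, so their presence among the 19498 tested probe sets is a product of the rise for which they were chosen. Signals of different probe sets are not compared in level, since each probe set has its own brightness, and in bulk cultures more cells of a type and more RNA per cell cannot be told apart.

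**Figure D1:**
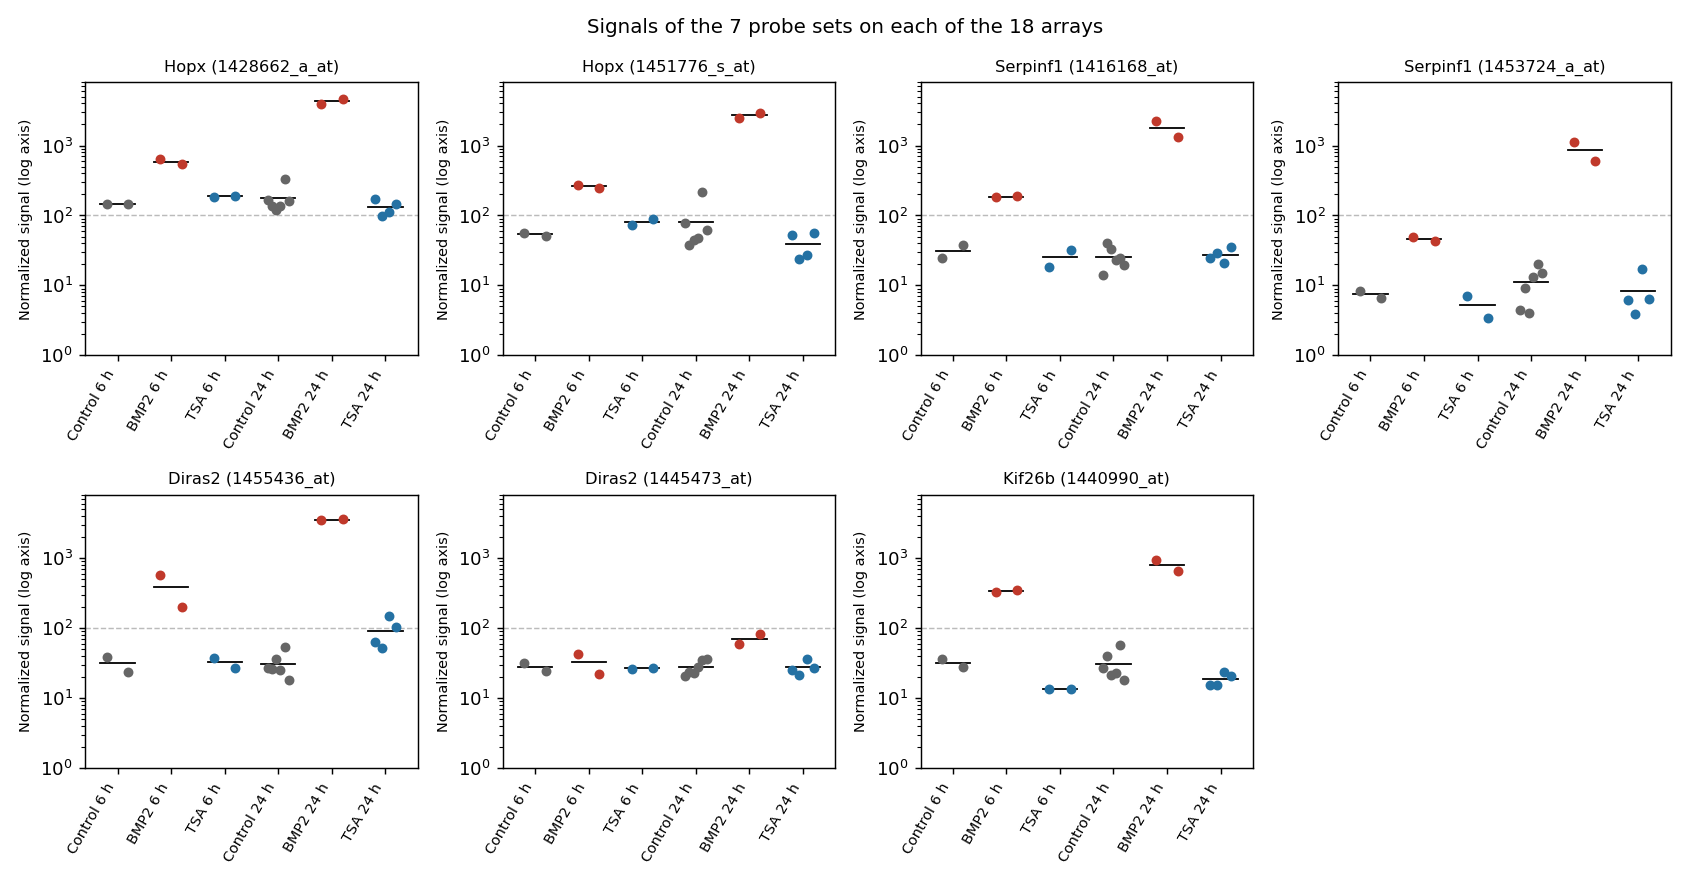
Quantile-normalized signal (log axis) of each of the 7 probe sets on each of the 18 arrays, by treatment and time, with a point for each array and a bar for the group mean. The dashed line marks a signal of 100. In 6 of 7 panels both BMP2 arrays of 6 h and both of 24 h lie above all other arrays, and Diras2 1445473_at stays under 100 throughout. The genes were chosen for their rise with BMP2.

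Hopx had a moderate signal in every group and was higher with BMP2 at 6 h and again at 24 h. On probe set 1428662_a_at the controls of 6 h read 146 and 148 and the BMP2 arrays of 6 h 640 and 535. At 24 h the 6 controls ran from 119 over a median of 149 to 335, and the BMP2 arrays read 3970 and 4630. The BMP2 arrays did not overlap with the controls at either time, and those of 24 h did not overlap with those of 6 h. The ratio of the means was 4 at 6 h and 24.5 at 24 h, and the log2(signal + 32) difference was 1.79 (SE 0.32) at 6 h and 4.45 (SE 0.26) at 24 h. On the second probe set, 1451776_s_at, no BMP2 array overlapped with the controls either. Its BMP2 arrays read 270 and 251 at 6 h against 55.6 and 51.4, and 2440 and 2950 at 24 h against controls of 37.7 to 213 with a median of 54.3.

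Among the controls of 24 h, replicate 5 stood apart for Hopx. It read 335 and 213 on the 2 probe sets, while the other 5 controls of 24 h read 119 to 168 and 37.7 to 78.2. This array was the highest of the 6 controls of 24 h on 5 of the 7 probe sets, on 3440 of the 19498 tested probe sets and on 2 of 14 genes of a list of BMP-Smad targets described below. Replicate 6 was the highest on 5122 of the 19498. Without replicate 5, the BMP2 difference of Hopx at 24 h was 4.63 on 1428662_a_at. The controls of 24 h also fell into replicates 1 to 4 and replicates 5 and 6 by the long noncoding RNA Xist. On 1 of its 3 probe sets these read 21.8 to 53.5 and 1550 to 2090. Both BMP2 arrays of 24 h read 703 to 1220 there, and every array of 6 h and TSA 18.4 to 75.5. A second Xist probe set also placed these controls and BMP2 arrays highest. On it controls 5 and 6 read 4470 and 2790 and the BMP2 arrays of 24 h 3280 and 2200. Every other array read 325 to 1870 there. The third probe set did not set them above the others, with control 6 at 23.4. The labels name no batch. Against controls 5 and 6 alone the BMP2 difference of Hopx at 24 h was 4.02 (SE 0.27), and against controls 1 to 4 it was 4.66 (SE 0.17).

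Serpinf1 was dim in the controls and bright with BMP2. On probe set 1416168_at the controls of 6 h read 24.5 and 37.7 and the BMP2 arrays 182 and 187. At 24 h the controls ran from 14 over a median of 23.9 to 40.5, and the BMP2 arrays read 2220 and 1330. All BMP2 arrays lay above all controls, and replicate 1 of 24 h was 1.67 times replicate 2. The ratio of the means was 5.94 at 6 h and 68.8 at 24 h, with log2 differences of 1.79 (SE 0.25) and 4.94 (SE 0.20). The second probe set, 1453724_a_at, was listed at 4.02 to 20.5 in the controls of 24 h and at 1120 and 605 in the BMP2 arrays. At 6 h it read 48.4 and 43.4 with BMP2 against 8.33 and 6.56, with a ratio of the means of 6.17 and a log2(signal + 32) difference of 0.98, which the added 32 keeps low at such dim signals.

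Diras2 had the largest BMP2 difference at 24 h of all 19498 tested probe sets. On probe set 1455436_at the controls of 6 h read 39.1 and 24.0 and the BMP2 arrays 567 and 203. The controls of 24 h ran from 18.4 over a median of 26.6 to 53.0, and the BMP2 arrays read 3520 and 3620. All BMP2 arrays lay above all controls, and the pair of 6 h differed by 2.79 times while the pair of 24 h lay close together. The ratio of the means was 12.2 at 6 h and 115 at 24 h, with log2 differences of 2.57 (SE 0.38) and 5.86 (SE 0.31). Without the brighter array of 6 h the difference at 6 h was 1.90, and without the dimmer 3.25. The second probe set of Diras2, 1445473_at, was too dim to test. It read 58.8 and 82.5 with BMP2 at 24 h against 20.9 to 35.9 in the controls, and 42.5 and 22.5 with BMP2 at 6 h against 32.1 and 24.2, so that at 6 h its groups overlapped.

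Kif26b was dim in the controls and higher with BMP2, with the smallest ratio of 24 h to 6 h among the 6 tested probe sets. The controls of 6 h read 36.1 and 27.8 on probe set 1440990_at and the BMP2 arrays 330 and 357. The controls of 24 h ran from 18 over a median of 24.8 to 57.5, and the BMP2 arrays read 958 and 649. All BMP2 arrays lay above all controls, and both of 24 h lay above both of 6 h. The ratio of the means was 10.7 at 6 h and 25.9 at 24 h, with log2 differences of 2.56 (SE 0.25) and 3.73 (SE 0.20).

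Since the 4 genes were picked for these rises, no test of BMP2 against control is given for them. By size of the difference among the 19498 tested probe sets, Diras2 stood at position 1, Serpinf1 at 3 and 8, Hopx at 4 and 5 and Kif26b at 20 at 24 h. At 6 h Diras2 stood at 10, Kif26b at 12, Serpinf1 at 52 and 229, and Hopx at 53 and 55. Both BMP2 arrays lay above all controls for 7 of 7 probe sets at 24 h, where 15.3% of all tested probe sets do so, and for 6 of 7 at 6 h, where 22.9% do, a count that the choice of the genes fixes.

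The signals of the BMP2 arrays themselves grew between the times. From 6 to 24 h the mean rose 7.32 times for Hopx 1428662_a_at, 9.59 times for Serpinf1 1416168_at, 9.26 times for Diras2 1455436_at and 2.34 times for Kif26b. No difference between the controls of both times passed the test. The difference of the 24 h from the 6 h controls was 0.14 (SE 0.26) for Hopx, -0.14 (SE 0.20) for Serpinf1, -0.02 (SE 0.31) for Diras2 and -0.05 (SE 0.20) for Kif26b. In limma the adjusted p of these 4 probe sets was 0.735 to 0.976 and 0 of 6 probe sets were under 0.05 without adjustment, while 4.45% of all tested probe sets were called. Except for Hopx 1428662_a_at, the 6 entered the model only through their BMP2 arrays. Their dim controls leave little room for a call, so the 0 of 6 is not read as stability. In the order of the 6 group means BMP2 24 h came first and BMP2 6 h second for each of the 6 tested probe sets, and neither overlapped with the next group. The genes were chosen for their rise with BMP2, which favours this order. Its share among all tested probe sets was not counted. The control and TSA groups followed. For Hopx and Serpinf1 each of these 4 overlapped with its neighbour in the order, while for Diras2 TSA 24 h came next after BMP2, without overlap with TSA 6 h but with overlap with the controls of 24 h. For Kif26b TSA 6 h stood last, without overlap with TSA 24 h.

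**Figure D2:**
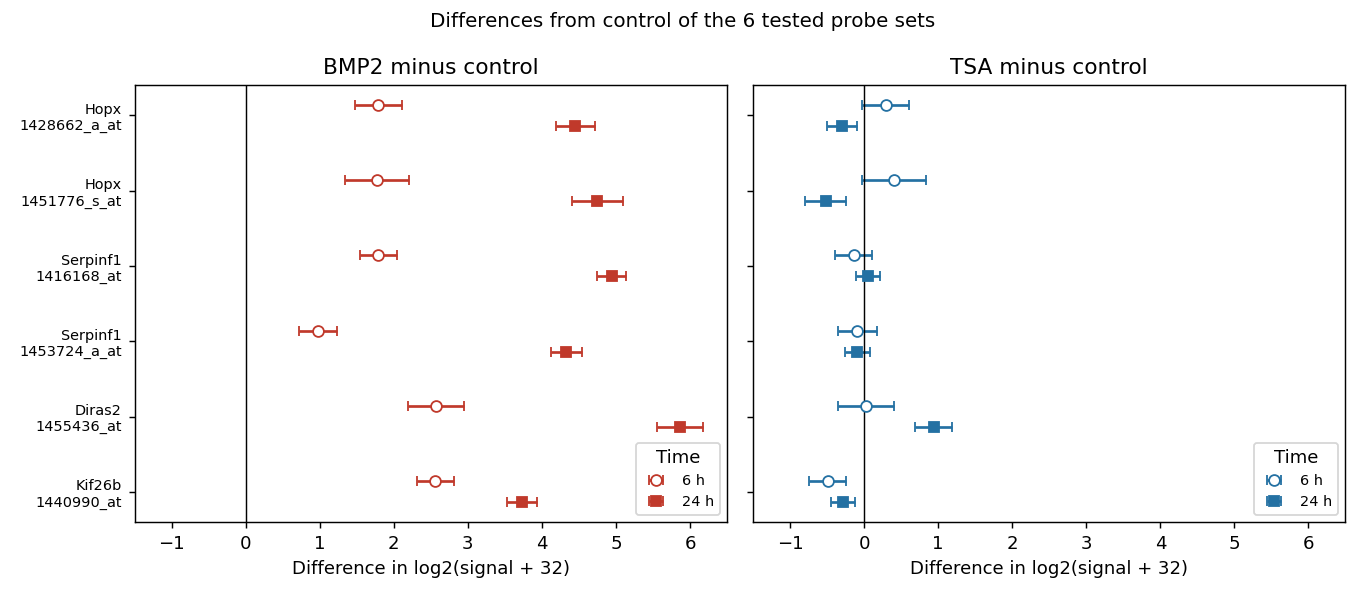
Difference from the controls of the same time in log2(signal + 32) for the 6 tested probe sets, BMP2 on the left and TSA on the right, with open symbols for 6 h, filled symbols for 24 h and bars for 1 SE of the model. BMP2 differences run from 0.98 to 2.57 at 6 h and from 3.73 to 5.86 at 24 h, while TSA differences run from -0.52 to 0.94.

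Known targets of BMP-Smad signalling were followed beside the 4 genes. Of a list of 20 such genes 14 were tested, and 6 had risen at 6 h and 12 at 24 h, where 1.15% and 9.93% of the 10589 tested genes had risen. None of the 14 had fallen. The 2 that did not pass at 24 h were Id4 (0.58, adjusted p = 0.0651) and Gata2 (0.21). By adjusted p at 24 h the first were Nog, an extracellular BMP antagonist, with differences of 4.31 (SE 0.18, adjusted p = 1.96e-09) at 6 h and 3.14 (SE 0.15, adjusted p = 2.28e-09) at 24 h, and the inhibitory Smad6 with 3.56 (adjusted p = 2.36e-05) and 3.83 (adjusted p = 5.64e-08). Fst, an activin and BMP antagonist, rose by 3.25 and 4.10, and Atoh8, a basic helix-loop-helix factor, by 2.77 and 2.76 on the log2 scale. From 6 to 24 h the BMP2 difference of the 14 genes changed by -1.17 to 0.85 with a median of 0.22. The same change was 2.66 for Hopx, 3.15 for Serpinf1, 3.28 for Diras2 and 1.18 for Kif26b, so all 4 lay above the highest target, Fst. The 4 genes were picked in view of the 24 h values, and this comparison is given without a test.

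**Figure D3:**
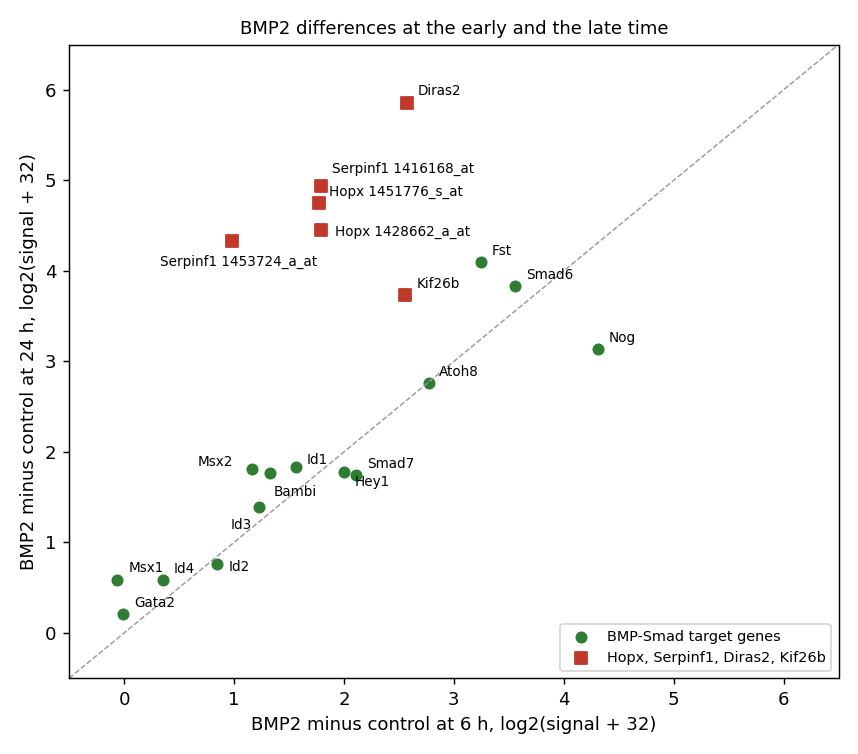
BMP2 minus control in log2(signal + 32) at 6 h (horizontal) and 24 h (vertical) for the 6 tested probe sets of the 4 genes (squares) and the 14 tested BMP-Smad target genes (circles), with a dashed line where both are equal. The targets lie from 1.17 below the line (Nog) to 0.85 above it (Fst), and the squares lie 1.18 (Kif26b) to 3.34 above it.

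With TSA at 24 h 2 of the 14 targets had risen and 6 had fallen, where 18.6% of all tested genes had risen and 20.1% had fallen. Id3 fell by 2.01 (adjusted p = 1.99e-04) and Id4 by 0.83 (adjusted p = 9.76e-04), both inhibitors of basic helix-loop-helix factors. Against controls 5 and 6 alone 1 had risen and 3 had fallen.

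Receptors, Smads and ligands of the pathway were followed as well. Of 14 genes on a list of BMP receptors, Smads and ligands 11 were tested. At 24 h 4 had risen with BMP2, the type I receptors Bmpr1a (0.78, adjusted p = 1.45e-04) and Acvr1 (0.79, adjusted p = 0.00167) and the type II receptors Bmpr2 (1.01, adjusted p = 0.00126) and Acvr2a (0.64, adjusted p = 0.0325). The ligand Bmp4 fell by 3.99 (SE 0.42, adjusted p = 7.8e-06). The median of the 11 was 0.37, against 0.03 over all tested genes, of which 9.93% had risen and 7.71% had fallen. Smad1, Smad4 and Smad5, the signal carriers, did not pass the test, with differences of 0.37, 0.09 and -0.22. With TSA at 24 h 1 of the 11 had risen and 3 had fallen, where 18.6% and 20.1% of all tested genes had. With the replicate number as a block 2 of the 11 had risen. The ligand Bmp6 rose by 2.26 (adjusted p = 1.3e-05), from 17.6 in the controls to 206, while Bmp4 fell by 2.9 (adjusted p = 9.87e-06), the type II receptor Acvr2b by 1.15 (adjusted p = 1.17e-05) and Smad1 by 0.49 (adjusted p = 0.0105).

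No TSA array reached the BMP2 arrays of the same time on the tested probe sets of the 4 genes. The test of TSA against control uses arrays of TSA that did not enter the choice of the genes, but it shares its controls with the BMP2 comparison. At 6 h none of the tested probe sets of the 4 genes was called in limma, with or without adjustment, where 22.4% of all tested probe sets were called after adjustment. At 24 h 1 passed, Diras2, where 35.2% of all tested probe sets passed and 16.6% had risen. Most probe sets of the 4 genes entered the model only through their BMP2 arrays. Dim control and TSA signals leave them less room for a call than these shares imply.

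Diras2 rose with TSA at 24 h. Its TSA arrays of 24 h read 63.9, 52.0, 149 and 106, with a mean of 92.5 against 30.9 in the controls. Of the 4 arrays 3 lay above all 6 controls, and the array at 52.0 lay just under control replicate 5 at 53.0. The difference was 0.94 (SE 0.25, 95% interval 0.41 to 1.46), with an adjusted p of 0.008 in limma. Of the 4 arrays 2 stayed under 100, a range in which a probe set was tested here only because of its BMP2 arrays. Against controls 5 and 6 alone the difference was 0.86 with an adjusted p of 0.079, and against controls 1 to 4 it was 0.98 with an adjusted p of 0.0122. At 6 h the TSA arrays read 38.1 and 27.0 against 39.1 and 24.0, with a difference of 0.03 (SE 0.38, 95% interval -0.79 to 0.84, adjusted p = 0.972). The change of the TSA difference from 6 to 24 h was 0.91 (SE 0.46, adjusted p = 0.224) and did not pass the test. None of the 6 probe sets passed it, or was under 0.05 without adjustment, where 9.79% of all tested probe sets passed. Most of these 6 were dim in the TSA and control arrays, which limits what this count can show. The second Diras2 probe set read 24.9, 21.7, 36.5 and 27.3 with TSA at 24 h, of which 1 lay above its controls of 20.9 to 35.9.

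Hopx had TSA signals of 184 and 190 at 6 h and of 171, 97.1, 110 and 146 at 24 h on 1428662_a_at. Both arrays of 6 h lay above both controls of 6 h, as 38.6% of all tested probe sets do, and at 24 h 2 of 4 lay below all controls. The difference was 0.29 (SE 0.32, 95% interval -0.38 to 0.96, adjusted p = 0.570) at 6 h and -0.30 (SE 0.20, 95% interval -0.74 to 0.13, adjusted p = 0.264) at 24 h, and on 1451776_s_at it was 0.40 and -0.52. The value at 24 h rested on the choice of controls. Against controls 5 and 6 alone it was -0.74 with an adjusted p of 0.024, against controls 1 to 4 it was -0.09 with an adjusted p of 0.669, and without control replicate 5 it was -0.13 with an adjusted p of 0.515.

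Serpinf1 and Kif26b did not pass the test at either time. Serpinf1 1416168_at read 18.5 and 32.5 with TSA at 6 h and 24.9, 28.8, 20.6 and 35.9 at 24 h, within the span of its controls of 24 h. The differences were -0.14 (95% interval -0.66 to 0.39, adjusted p = 0.754) and 0.05 (95% interval -0.29 to 0.39, adjusted p = 0.818). Kif26b read 13.4 and 13.7 with TSA at 6 h, both below both controls of 6 h, as 36.5% of all tested probe sets do, and 15.6, 15.2, 23.9 and 21.0 at 24 h, of which 2 lay below all controls. Its differences were -0.49 (95% interval -1.01 to 0.04, adjusted p = 0.181) and -0.28 (95% interval -0.62 to 0.06, adjusted p = 0.187). At signals this close to the added 32, even a complete loss gives a small difference on this scale.

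The genes with the most similar course over the 18 arrays were sought among 10267 other genes by the root mean square difference of the log2(signal + 32) values after centring, a description for which no test is given since the BMP2 arrays take part in it. For Hopx these were Stk32b at 0.29, Gja3 at 0.42, Serpinf1 at 0.43 and Scg2 at 0.45. Stk32b, a serine/threonine kinase, had group means of 16.9 and 28.3 in the controls of 6 and 24 h, 122 and 857 with BMP2 and 16.9 and 12.7 with TSA. Serpinf1 was most like Gja3, a connexin of gap junctions, at 0.38, then Hopx at 0.43, Cidea, a lipid droplet protein, at 0.46 and Adamtsl2 at 0.47. For Diras2 the closest was Wif1, a secreted Wnt inhibitor, at 0.55, before Gja3 at 0.57, Serpinf1 at 0.60 and Scg2, a secretogranin of secretory vesicles, at 0.70. Wif1 read 4.07 and 3.32 in the controls and 405 and 1370 with BMP2.

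For Kif26b the closest were Adamtsl2, a secreted matrix protein, at 0.35, Atoh8 at 0.36, Smad6 at 0.43 and Adcy1, an adenylate cyclase, at 0.49, and Atoh8 and Smad6 belong to the BMP-Smad list. Another gene of that list, Fst, stood at position 5 for Diras2 at 0.70, and Smad6 at position 10. Adamtsl2 had means of 179 at 6 h and 535 at 24 h with BMP2, and Atoh8 307 and 306. Among the 4 genes themselves Hopx and Serpinf1 were most alike at 0.43, and Diras2 and Kif26b least at 0.81.

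**Figure D4:**
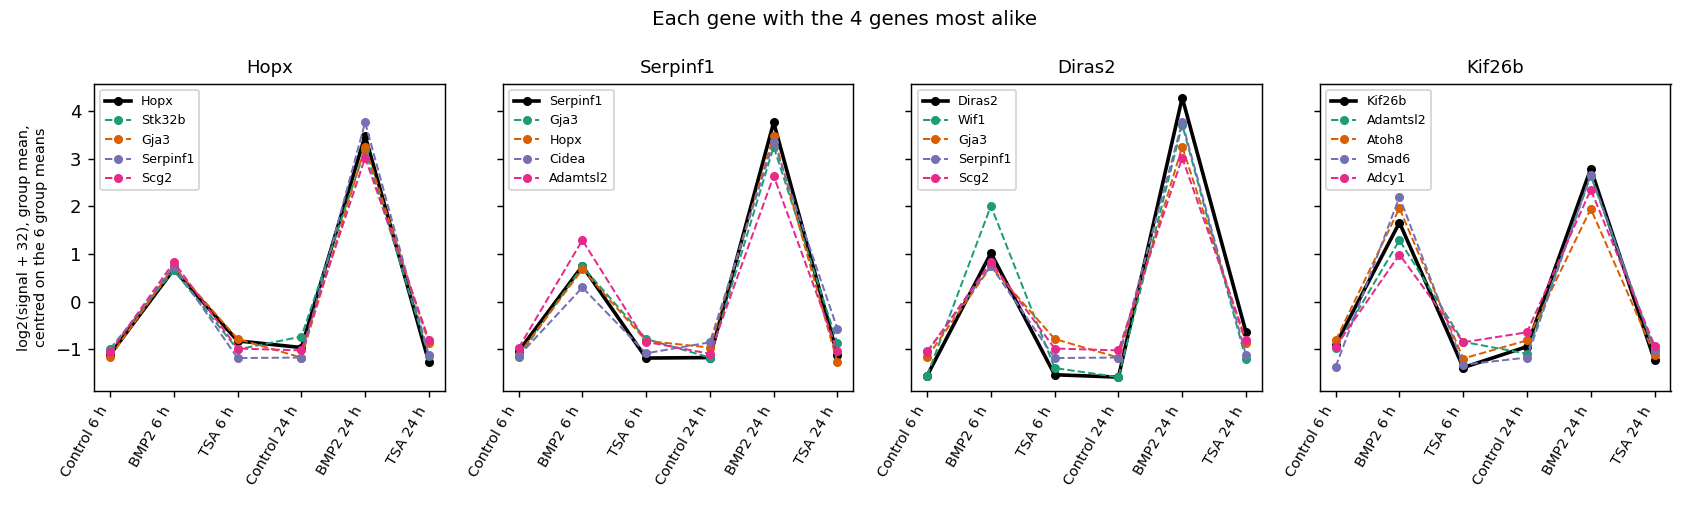
Group means of log2(signal + 32), centred on the mean of the 6 group means, for each of the 4 genes (black) and the 4 genes most alike (coloured, dashed). The BMP2 24 h group is the highest for Hopx, Serpinf1, Diras2 and Kif26b, and among the genes drawn beside Kif26b Atoh8 had means of 307 at 6 h and 306 at 24 h of BMP2 and Smad6 of 615 and 849.

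The partners and relatives of the 4 proteins were followed from lists. Serum response factor (Srf) and the histone deacetylases that HOPX recruits did not pass the test with BMP2 at 24 h. Srf differed by 0.17 (adjusted p = 0.504), Hdac1 by 0.10, Hdac2 by 0.01 and Hdac3 by 0.37. Of 12 tested genes among HOPX partners and targets of serum response factor, 1 had risen with BMP2 at 24 h and 0 had fallen, with a median of 0.12. Over all tested genes 9.93% had risen and 7.71% had fallen. The risen gene was Tagln, a smooth muscle actin-binding protein, at 2.57 (SE 0.49, adjusted p = 0.00183), from 117 in the controls to 770. With TSA at 24 h 3 of the 12 had risen and 2 had fallen, where 18.6% of all tested genes had risen and 20.1% had fallen. Those that fell were Srf by 0.84 (adjusted p = 1.38e-04) and Hdac2 by 0.38 (adjusted p = 0.00192). Vcl, the focal adhesion protein vinculin, rose by 0.88 (adjusted p = 1.78e-04). The immediate early gene Egr1 differed by -1.73 with BMP2 (adjusted p = 0.0842) and rose by 1.82 with TSA. Without control replicate 6, 1 gene of the list had fallen with BMP2.

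Other serpins and proteins that bind PEDF were followed beside Serpinf1. With BMP2 at 24 h 9.93% of all tested genes had risen and 7.71% had fallen. Of 5 tested serpins 2 had risen with BMP2 at 24 h, Serpinb1a, an inhibitor of neutrophil proteases, at 1.67 (SE 0.32, adjusted p = 0.00197) and Serpinh1, a collagen chaperone, at 0.87 (SE 0.17, adjusted p = 0.00268). The list had a median of 0.4, and without BMP2 replicate 1 the count was 1. Serpina3n, an acute phase serpin, differed by -0.94 (adjusted p = 0.089). Serpini1, or neuroserpin, differed by 0.4 with BMP2 (adjusted p = 0.239) and rose by 0.69 with TSA at 24 h (adjusted p = 0.00713). Of 5 tested genes for proteins that bind PEDF, 1 had risen with BMP2 at 24 h, Kdr, a receptor of vascular endothelial growth factor, at 1.36 (SE 0.19, adjusted p = 1.32e-04), and the median was 0.17. Pnpla2, a triglyceride lipase that binds PEDF, differed by 0.17, Lrp6 by 0.21, the laminin receptor Rpsa by -0.11 and the ATP synthase subunit Atp5b by 0.15, and these did not pass.

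Diras1, the close relative of Diras2, had no rise with BMP2 that passed the test. Its means were 29.2 in the controls and 11.6 with BMP2 at 24 h, a difference of -0.48 (SE 0.29, adjusted p = 0.274), and it rose with TSA at 6 h from 36.5 to 142 (1.38, SE 0.35, adjusted p = 0.0109). Of 19 tested small GTPases of the Ras family 2 had risen with BMP2 at 24 h and 1 had fallen, with a median of -0.02, where 9.93% of all tested genes had risen and 7.71% had fallen. Rasl11b rose by 1.44 (adjusted p = 2.64e-04), having risen by 1.94 at 6 h (adjusted p = 8.58e-04), and Rap1b by 0.25 (adjusted p = 0.0427), while Rap2a fell by 1.11 (adjusted p = 0.00268). The count of risen genes was 1 without BMP2 replicate 1 or 2 or control replicate 3 or 4, and that of fallen genes was 0 without BMP2 replicate 1 and 2 without control replicate 6. With TSA at 24 h 3 had risen, Rras by 1.3 (adjusted p = 6.23e-07), and 4 had fallen, Rap2a by 0.89, against 18.6% and 20.1% of all tested genes. With the replicate number as a block 7 had risen with TSA, and without control replicate 6, 5 had.

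Kif26a, the close relative of Kif26b, rose with both agents at 24 h, by 0.63 with BMP2 (SE 0.20, adjusted p = 0.0423) and by 0.89 with TSA (SE 0.16, adjusted p = 4.90e-04), from 225 in the controls to 361 and 438. At 6 h of BMP2 its difference was -0.05. Of 28 tested kinesins 5 had risen with BMP2 at 24 h and 2 had fallen, where 9.93% and 7.71% of all tested genes had. The kinesins had a median of 0.15. Besides Kif26a the risen ones were Kif7, which acts in hedgehog signalling (1.18, adjusted p = 0.00129), Kif3c (0.49), Kif5c (0.62) and Kif21a (0.60), and the fallen ones Kif21b (-0.92, adjusted p = 5.18e-04) and Kif1a (-1.09, adjusted p = 0.0341). Against controls 5 and 6 alone 2 kinesins had risen, without BMP2 replicate 1 or 2 the count was 2 or 1, and without control replicate 4 it was 3. The count of fallen kinesins was 1 without either BMP2 array or without control replicate 1 or 2. With TSA Kif13a, a transport kinesin, fell by 0.91 (adjusted p = 5.38e-04).

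Of 19 tested genes of Wnt5a-Ror signalling, the pathway of Kif26b, 6 had risen with BMP2 at 24 h and 1 had fallen. Over all tested genes 9.93% had risen and 7.71% had fallen. The list had a median of 0.38. Ror2, the receptor, rose by 1.5 (SE 0.21, adjusted p = 1.23e-04) and its ligand Wnt5a by 0.98 (SE 0.23, adjusted p = 0.00875). The receptor Fzd1 rose by 1.45 (adjusted p = 9.33e-06), having risen by 1.30 at 6 h, and the planar polarity genes Celsr2 and Prickle2 by 0.64 and 0.98. Prickle1 fell by 2.34 (adjusted p = 0.021), a call lost without either BMP2 array. Fzd7 rose by 1.03 (adjusted p = 5.1e-04). With TSA at 24 h 7 had risen and 1 had fallen, where 18.6% and 20.1% of all tested genes had. Among the risen were Wnt5a by 0.96 (adjusted p = 8.86e-04) and Fzd7 by 1.06 (adjusted p = 2.28e-05). With the replicate number as a block 11 had risen and 2 had fallen with TSA, and against controls 1 to 4 alone 11 had risen with BMP2.

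Cell type markers moved along with BMP2 at 24 h, and their part in the rise of the 4 genes was not tested. The summed signal of 7 oligodendrocyte lineage markers was 11000 to 11600 in the BMP2 arrays of 24 h and 21100 to 26400 in the controls. By the test 4 were lower and 0 higher, where 7.71% of all tested genes had fallen and 9.93% had risen. The 8 astrocyte and radial glia markers summed to 20800 to 22000 against 23400 to 29300. Of these 3 were lower, Slc1a3, Slc1a2 and S100b, and 0 higher. Gfap, Aldh1l1 and Nes differed by -1.49, -0.81 and -0.83 and Aqp4 by 0.40, and none of them passed. Fabp7, the brightest, had means of 10100 in both groups, with an SD of 0 in the BMP2 arrays and 520 in the controls. The quantile normalization sets signals by rank, so a change at this brightness could be missed. The 6 neuron markers summed to 2730 to 3400 against 1060 to 2830 with 2 higher, and control replicate 5 had the 2830. The 6 microglia markers summed to 44.5 to 53.8 against 43.2 to 68.5, and the endothelial Pecam1, Cdh5, Cldn5 and Tek had means of 8.76 to 21.5 with BMP2, Flt1 49 against 33.5 in the controls and Kdr 280 against 90.9. The endothelial sum was 358 to 412 against 147 to 190. The 6 choroid plexus markers summed to 739 to 887 against 400 to 661. Of these Otx2 had means of 602 against 286 (1.05, adjusted p = 0.0559), Clic6 115 against 119 and Ttr 39.8 against 23.4, and Kl, Aqp1 and Kcnj13 were at 7.72 to 39 with BMP2. The 7 markers of meningeal fibroblasts summed to 155 to 162 against 123 to 175. The 6 mural cell markers summed to 559 to 882 against 783 to 1080, with Acta2 at means of 487 against 446, Cspg4 at 140 against 134 and Pdgfrb, which fell by 1.98 (adjusted p = 0.0132), at 53.7 against 307.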

How the data were processed

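Affymetrix Mouse Genome 430 2.0 arrays of 6 groups, 18 in all, were used. The intensity values deposited by the authors are linear signals, 1 per probe set. The submitters' notes name MAS5, and the methods of the study name dChip with quantile normalization, so the processing is known only in part. The deposited array medians were 35.4 to 41.6, and the number of arrays limits the precision. Quantile normalization across the 18 arrays came first, then log2(signal + 32), a scale that understates changes of dim probe sets. The 19498 of 45101 probe sets with a highest group mean of at least 100 were fitted in 1 linear model of the 6 groups in limma 3.58.1 (R 4.3.3; eBayes with trend), with p-values adjusted after Benjamini and Hochberg over all of them and called under 0.05. The steps were tried on simulated data for TSA against control at 24 h only. Those data held independent arrays, without pairs or the Xist split, so they do not cover these features.

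The platform annotation pairs 34958 probe sets with 1 gene, 932 with several and 9211 with none. 0 of the 932 name one of the 4 genes. A gene is represented by its tested probe set of highest mean (10589 genes). The 4 genes and the 8 gene lists and 8 marker lists were chosen with earlier results of these data known. Of 208 list entries 197 were measured. Named genes are all probe sets of the 4 genes, the 4 most alike genes of each (predicted genes passed over), from each list up to 4 genes of smallest adjusted p with BMP2 at 24 h and up to 2 with TSA, and close relatives and partners whether or not they passed.

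Arrays of equal replicate number were checked on the residuals: TSA and control arrays of 24 h correlated at 0.32 to 0.58, each highest at its own number. They look paired, but the main model held no block, so its TSA tests are unpaired. The pairing enters only in the alternatives with a block. BMP2 arrays of 24 h gave -0.13 and 0. At 6 h the 2 pairs of each treatment gave 0.70 for BMP2 and 0.56 for TSA. Arrays of a group correlated at 0.908 to 0.988, with at most 0.641% of values identical. Alternatives were no normalization, median scaling, other pseudocounts and filters, no trend, only the groups compared, a replicate block, a block within time (chosen after seeing the data), controls of either cluster, a batch term and each array left out. Promoters are from RefSeq (GRCm38.p6), and all 4 genes were matched. Protein sequences, stainings and assays other than arrays were not analysed here.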

Additional observations from a re-analysis of the deposited data

Results flagged for a closer look

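Control replicate 5 of 24 h stood apart from the other 5 controls of its group for Hopx. Its gap to the nearest control, as a share of the range of the group on the log2(signal + 32) scale, was 0.682 on probe set 1428662_a_at (signal 335) and 0.636 on 1451776_s_at (signal 213), above Dixon's 95% critical value for a group of 6. Chance marks about 1 in 20 groups, and 14 groups of 4 or 6 arrays were examined over the 7 probe sets. The 2 values come from 1 gene on 1 array and are not independent. The cause was not tested.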

How the results depend on the processing

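The BMP2 differences of the 6 tested probe sets kept their direction under every alternative run, while their size followed the constant added before the log2. With 16 and 64 in place of 32 the difference at 24 h was 6.29 and 5.27 for Diras2, 5.4 and 4.32 for Serpinf1 and 4.15 and 3.18 for Kif26b, and at 6 h 2.11 and 1.39 for Serpinf1, 2.91 and 2.09 for Kif26b and, with 64, 2.11 for Diras2. For Hopx at 24 h it was 4.02 against controls 5 and 6 alone. The batch term set apart controls 5 and 6 and both BMP2 arrays of 24 h, those with the high Xist signal, though no label names a batch. By construction it gives the same BMP2 estimate at 24 h as controls 5 and 6 alone. Its TSA and control estimates equal those against controls 1 to 4. With single arrays left out the BMP2 difference ran at 24 h from 3.46 to 4 for Kif26b and from 4.57 to 5.3 for Serpinf1, and at 6 h from 1.9 to 3.25 for Diras2. Where a group was left with 1 array, that array is assumed to vary like the others.

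The call of Diras2 with TSA at 24 h was lost against controls 5 and 6 alone (0.86, adjusted p = 0.079), and a call of Hopx appeared there (-0.74, adjusted p = 0.024). Over 22 alternatives the Diras2 difference ran from 0.69 to 1.16 and its adjusted p from 0.00243 to 0.079. The cause was not tested. With the replicate number as a block, which pairs TSA and control arrays of 24 h, the Diras2 difference was 0.98 (adjusted p = 0.00401), and the block changed no call of the 4 genes. It raised the number of all probe sets called from 6872 to 8729 with TSA at 24 h, from 4369 to 7701 with TSA at 6 h, from 868 to 4737 between the controls and from 1908 to 4678 for the change of the TSA difference. With BMP2 the numbers went from 284 to 629 at 6 h and from 3212 to 8779 at 24 h, where the arrays of equal number did not pair. With BMP2 at 24 h 1764 probe sets were called against controls 5 and 6 alone, 1885 with a batch term, 6884 against controls 1 to 4 and 1960 with only the groups compared, and with single arrays left out 1230 to 4751. With single arrays left out at 6 h of BMP2, 94 to 144 were called.

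Signs turned only where no call was made. With TSA at 24 h Serpinf1 1453724_a_at was at 0.02 with a batch term, with either block and against controls 1 to 4, and Serpinf1 1416168_at ran from -0.01 to 0.12 with single arrays left out. With TSA at 6 h Diras2 ran from -0.14 to 0.2 and Serpinf1 from -0.31 to 0.04. Between the controls of 24 and 6 h, Diras2 was at 0.05 against controls 5 and 6 and at 0.06 with the block within time, and ran from -0.2 to 0.15 with single arrays left out. Hopx was at -0.07 with a batch term and against controls 1 to 4, and at -0.01 with the replicate block. Against controls 5 and 6 Hopx was at 0.58, its highest value, and with single arrays left out it ran from -0.03 to 0.22. Kif26b was at 0.07 against controls 5 and 6 and ran from -0.16 to 0.04, and Serpinf1 ran from -0.29 to 0.02. A fit of only the groups compared gave no value for any TSA or control result of Serpinf1, Diras2 and Kif26b. Their probe sets then had no group mean of 100. The same held for Hopx 1451776_s_at with TSA. Of the counts of called genes per list, 979 were within 1.5 times the main count, 66 above and 107 below. Dim signals limit what can be seen of a fall.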
